A study of Rattus norvegicus with 22 samples.

Results

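The liver makes most of the complement and clotting proteins of the blood, and 36 of their genes are described here in the livers of rats that breathed ozone or air after hepatic vagotomy or sham surgery. They were picked by symbol, 18 complement genes and 18 clotting genes, out of 14971 genes in the table, and all 36 had a row. RNA sequencing was done on 22 livers, 1 per rat. The groups were 5 vagotomised ozone rats, 6 vagotomised air rats, 6 sham ozone rats and 5 sham air rats. All of them had surgery at 12 weeks of age, either the severing of the vagus nerve branch to the liver or a sham operation, and 5 to 6 days to recover. They then breathed ozone at 1.0 ppm or air for 4 hours on 1 or 2 days and were killed within 2 hours. Strain and sex are not in the labels, and neither is the number of days of each rat, so 1 and 2 days of exposure cannot be told apart. Each library came from 10 to 20 mg of liver, so the values are of bulk tissue, in which fewer cells of a type and less RNA per cell cannot be told apart.

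Complement is a chain of plasma proteases and binding proteins. The classical pathway starts from antibody through C1r, C1s, C4 and C2, the lectin pathway from sugars on microbes through mannose-binding lectins and their proteases, and the alternative pathway runs through factor B. All of them cleave C3 and then C5, after which C6, C7, C8 and C9 assemble into a pore. Clotting runs through a similar chain of proteases that ends in thrombin and fibrin, with the contact proteins at its start, serpins and the protein C pathway as brakes, and plasmin as the protease that dissolves the clot. Hepatocytes secrete nearly all of these proteins, and many of them belong to the acute phase response, the shift in liver secretion after injury or inflammation.

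The depth was 14098863 to 21141337 reads per library. Values are the authors' normalised counts, the reads of a gene divided by 1 size factor per library. Changes are given on the log2 scale, ± the standard error of limma's fit to all 22 libraries. Rose and fell are used where the p adjusted by Benjamini and Hochberg over 12424 genes was under 0.05. All 9 hepatocyte markers checked, such as albumin and transthyretin, were present, with a summed normalised count of 2095100 to 2661850 in vagotomised ozone livers, 2148470 to 2932260 in vagotomised air livers, 2018350 to 2842350 in sham ozone livers and 2257970 to 2559060 in sham air livers. These ranges overlapped. The 11 Kupffer cell and macrophage markers, 10 of them tested, summed to 5156 to 10718 over all libraries. With ozone 0 of the 10 passed in vagotomised rats, and 1 fell and 0 rose in sham rats. Of the hepatocyte markers 1 of 9 rose and 0 fell in each surgery. Of 8 stellate cell markers 0 passed in vagotomised rats, 2 fell and 1 rose in sham rats, and 4 fell and 1 rose in the average over surgeries. Their sum was 3084 to 7192 in vagotomised ozone and 3803 to 7104 in vagotomised air livers, and 2596 to 5618 in sham ozone and 3750 to 7090 in sham air livers. Of 8 endothelial markers 1 rose in vagotomised rats and 2 fell in sham rats. Cholangiocyte and red blood cell markers, 4 and 3 tested, did not pass. In none of the 8 marker lists was a gene of the table at 0 in every library. Lymphocyte markers, 4 in the table, summed to 75.3 to 165 in vagotomised ozone and 127 to 170 in vagotomised air livers, and 102 to 136 in sham ozone and 143 to 195 in sham air livers. Of the 2 tested, Ptprc, carried by all white blood cells, fell in sham rats and 0 passed in vagotomised rats. Neutrophil markers, also 4, summed to 19.1 to 88.6 in vagotomised ozone and 34.0 to 79.1 in vagotomised air livers, and 20.7 to 42.5 in sham ozone and 42.5 to 72.9 in sham air livers, and 1 of the 2 tested, Csf3r, fell in both surgeries. Those too low to test were Cd3e, Cd79a, S100a8 and Cxcr2, at means of 2.57, 1.87, 2.31 and 2.57. The part of these cells in the members' changes was not tested. A set of 4 libraries stood apart in 5.8S ribosomal RNA, at 38.1 to 180 against 342 to 3775 in the other 18, namely vagotomised ozone library 1, vagotomised air libraries 1 and 5 and sham ozone library 3. Calls lost without these 4 libraries are named as such.

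Of the 36 members, 35 passed the minimum mean normalised count of 10. The exception was Mbl2, a mannose-binding lectin, at a mean of 3.95. It had 4.77, 0, 0, 0 and 3.73 in vagotomised ozone livers, against a lowest, median and highest value of 5.96, 7.95 and 16.2 in vagotomised air livers. In sham rats it had 0, 2.71 and 4.36 as lowest, median and highest value in ozone livers, against 0.892, 2.97, 2.79, 2.90 and 1.03 in air livers. The vagotomised groups did not overlap, at a level of a few reads per library, and the gene was not tested.

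With ozone, a few complement transcripts passed the test, nearly all of them downwards. In vagotomised rats 4 of 17 tested complement genes fell and 0 rose, where 21.1% of all 12424 genes passed the test, 11.4% upwards and 9.63% downwards. In sham rats 4 fell and 1 rose, where 28.4% of all genes passed, 14.6% upwards and 13.8% downwards. The share of complement genes called, 23.5% in vagotomised and 29.4% in sham rats, was thus close to the share over all genes. Passed or not, 16 of 17 changes were below 0 in vagotomised rats and 13 of 17 in sham rats. Their median change was -0.22 in vagotomised rats, where the median of all genes was -0.01, and -0.15 in sham rats, where that of all genes was 0.01. C1s and C6 fell in both surgery groups, C1r and C8b only passed the test in vagotomised rats and C5, C9 and C8g only in sham rats. The ozone changes of the surgeries did not differ past the threshold for any of the 17.

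Few clotting transcripts passed. In vagotomised rats 3 of 18 fell (Klkb1, F11 and Serpinf2) and 0 rose, a share of 16.7% beside the 21.1% of all genes. In sham rats only Proc passed the test, upwards, a share of 5.56% beside 28.4%. The median change was -0.16 in vagotomised rats and 0.10 in sham rats, with 15 of 18 changes below 0 in vagotomised rats and 13 of 18 above 0 in sham rats. Under rescaling to equal column totals the sham median was -0.01, beside -0.09 for all genes, so the sign of the sham median rests on the scaling. Averaged over the surgeries, 8 complement genes fell and 1 rose, and 4 clotting genes fell and 0 rose, where 39.1% of all genes passed, 20.2% upwards and 18.9% downwards.

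**Figure D1:**
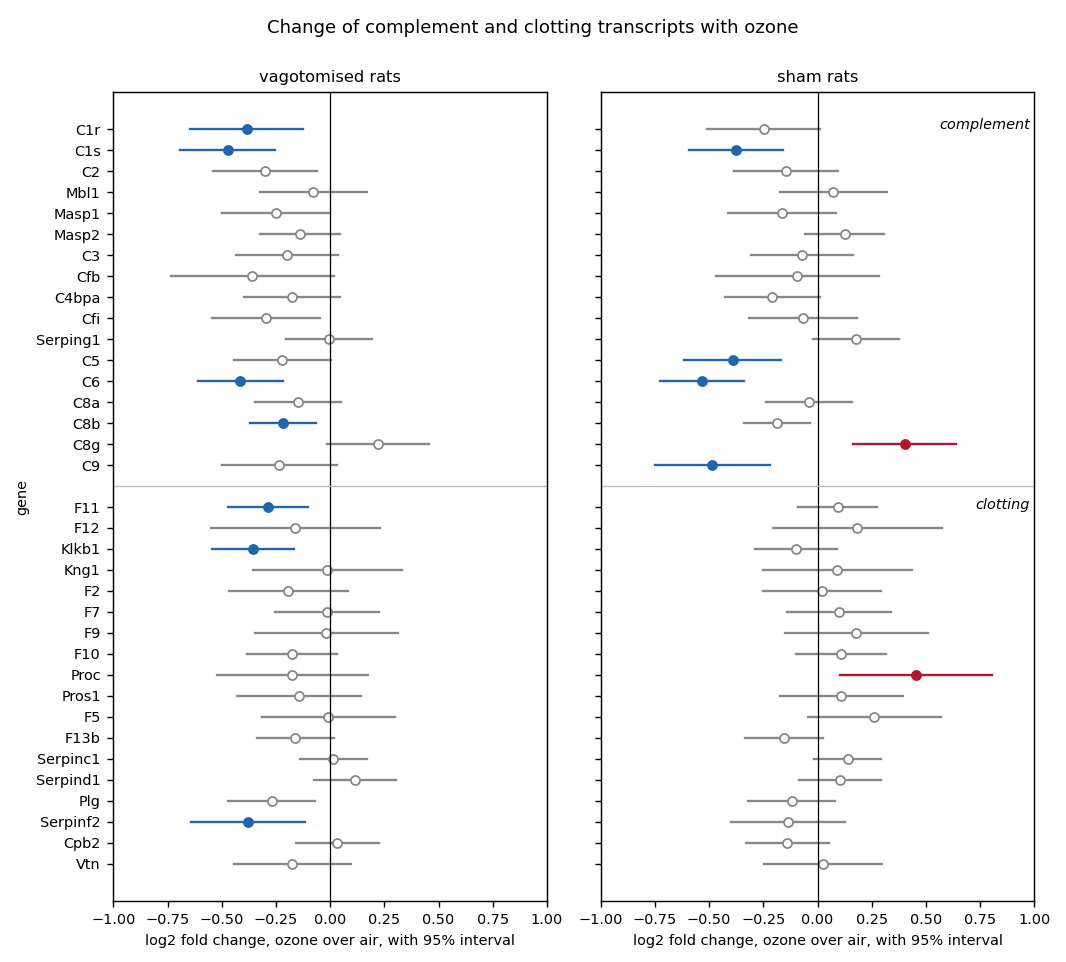
Log2 fold change of ozone over air with its 95% interval (x axis) for the 35 tested genes (y axis, complement above the line, clotting under it), in vagotomised rats (left) and sham rats (right). Filled blue and red points fell or rose at an adjusted p under 0.05, and open points did not pass. Most complement points lie left of 0 in both panels, while clotting points lie left of 0 in vagotomised rats in 15 of 18 cases and right of 0 in sham rats in 13 of 18.

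Of the classical pathway proteases, C1s fell in both surgeries and C1r in vagotomised rats, while C2 passed in neither. C1s, the protease that cleaves C4 and C2, had 5613, 4991, 5645, 6476 and 6325 normalised counts in vagotomised ozone livers, against a lowest, median and highest value of 7662, 7992 and 8436 in vagotomised air livers. Every vagotomised ozone liver was below every vagotomised air liver. Among sham rats C1s had 5499, 6643 and 7553 as lowest, median and highest value in ozone livers, against 8192, 9696, 6524, 8131 and 10204 in air livers. These groups overlapped through 1 air liver at 6524. C1s fell by 0.47 ± 0.11 in vagotomised rats (limma, adjusted p = 0.00242) and by 0.38 ± 0.11 in sham rats (adjusted p = 0.00984), which is 27.9% and 22.9% less RNA. Without the 4 libraries low in 5.8S the changes were -0.47 and -0.42, at adjusted p of 0.00895 and 0.00523.

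C1r, the protease that activates C1s, lies next to C1s in the annotation with no protein-coding gene between. It had 12484, 9201, 9952, 11326 and 11391 in vagotomised ozone livers, against 12475, 12939 and 18380 as lowest, median and highest value in vagotomised air livers. The overlap was between 1 ozone liver, library 1, and 2 air livers. C1r fell by 0.38 ± 0.13 in vagotomised rats (limma, adjusted p = 0.0320), a call lost without any 1 of 4 libraries (adjusted p up to 0.0997). In sham rats the change was -0.25 ± 0.13 (adjusted p = 0.149), or -0.33 (adjusted p = 0.00677) in a fit without the 4 low 5.8S libraries, of which sham ozone library 3 had the highest C1r of its group, 15264. The difference between the surgeries in the ozone change of C1r was -0.14, with a 95% interval from -0.51 to 0.23. C2, which C1s cleaves to form the C3 convertase, had changes of -0.30 ± 0.12 in vagotomised rats (adjusted p = 0.0663) and -0.15 ± 0.12 in sham rats (adjusted p = 0.371). Averaged over surgeries it fell, at -0.22 ± 0.08 (adjusted p = 0.0327), a call lost without any 1 of 10 libraries (adjusted p up to 0.0649). Without the low 5.8S libraries C2 passed in both surgery groups, at -0.25 (adjusted p = 0.0106) and -0.23 (adjusted p = 0.00652).

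No lectin pathway gene passed the test in either surgery group. Mbl1, a mannose-binding lectin, averaged 2473 ± 209 in vagotomised ozone livers and 2612 ± 246 in vagotomised air livers, and 2908 ± 681 in sham ozone livers and 2724 ± 294 in sham air livers (SD, n = 5, 6, 6 and 5). The proteases that bind the lectins, Masp1 and Masp2, had changes of -0.25 ± 0.12 and -0.14 ± 0.09 in vagotomised rats and of -0.17 ± 0.12 and 0.12 ± 0.09 in sham rats. The closest to the threshold was Masp1 averaged over surgeries (adjusted p = 0.0571). C3, the component at which all pathways meet, had 319284, 295399, 289654, 314013 and 325755 in vagotomised ozone livers, against 343565, 352572 and 367821 as lowest, median and highest value in vagotomised air livers. These groups did not overlap, yet the change of -0.20 ± 0.11 did not pass (adjusted p = 0.236), nor with only the groups compared in the fit (adjusted p = 0.147). In sham rats the change of C3 was -0.07 ± 0.11 (adjusted p = 0.674). Cfb, the protease of the alternative pathway, had changes of -0.36 ± 0.18 in vagotomised rats (adjusted p = 0.176) and -0.09 ± 0.18 in sham rats (adjusted p = 0.737), and is taken up again with the libraries that stood apart.

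The inhibitors did not pass in either surgery group. C4bpa, the alpha chain of the C4b-binding protein, had changes of -0.17 ± 0.11 and -0.21 ± 0.11 in vagotomised and sham rats. It fell only in the average over surgeries, at -0.19 ± 0.08 (limma, adjusted p = 0.0477). That call was lost in 4 settings, among them without the 4 libraries low in 5.8S. It was also lost without any 1 of 16 libraries (adjusted p up to 0.108). Cfi, the protease that breaks down C3b and C4b, had -0.30 ± 0.12 in vagotomised rats (adjusted p = 0.0836) and -0.07 ± 0.12 in sham rats (adjusted p = 0.709). Serping1, the C1 inhibitor, which also blocks plasma kallikrein and factor XII, averaged 19759 ± 1496 in vagotomised ozone livers and 19825 ± 1234 in vagotomised air livers, and 23427 ± 1926 in sham ozone livers and 20833 ± 3057 in sham air livers (SD). Its changes were -0.01 ± 0.10 and 0.18 ± 0.10, with adjusted p of 0.975 and 0.173.

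Of 6 terminal pathway genes, 2 fell in vagotomised rats (33.3%), and 3 fell and 1 rose in sham rats (66.7%). Over all genes 21.1% passed in vagotomised and 28.4% in sham rats. Promoter letters are shown for C6 and C8b, subunits of the pore that fell and that RefSeq's GRCr8 table holds, 27 of the 36 members being in it (11 complement, 16 clotting) and the others being C1s, C2, Masp2, Cfb, Serping1, C8g, C9, Serpind1 and Cpb2. Each run is the 250 bases before the annotated start, 5′ to 3′ on the gene's strand, with matches of the motifs searched in capitals. C6 lies at chr2:55573383-55573632 and C8b at chr5:124763864-124764113, both on the plus strand. The capitals are the letters TTGCNNAA of C/EBP proteins read on the other strand.
C6: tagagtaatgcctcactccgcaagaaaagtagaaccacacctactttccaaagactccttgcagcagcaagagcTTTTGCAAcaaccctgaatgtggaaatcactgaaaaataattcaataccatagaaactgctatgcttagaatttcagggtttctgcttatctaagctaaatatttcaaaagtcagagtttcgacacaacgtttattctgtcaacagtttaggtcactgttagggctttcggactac
C8b: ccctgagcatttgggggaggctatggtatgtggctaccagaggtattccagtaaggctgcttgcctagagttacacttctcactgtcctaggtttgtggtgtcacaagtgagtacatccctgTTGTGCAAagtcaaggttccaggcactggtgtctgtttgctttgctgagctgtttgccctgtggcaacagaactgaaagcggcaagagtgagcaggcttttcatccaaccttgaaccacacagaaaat
The C/EBP letters stood in 10 of 27 members (37.0%), 6 of 11 complement and 4 of 16 clotting, beside 9.22% of 33469 promoters of the same length. The HNF4 letters CAAAGTNCA stood in 1 (3.70%), beside 1.06%, the STAT letters TTCNNNGAA in 4 (14.8%), beside 7.67%, and the glucocorticoid receptor letters ACANNNTGT in 3 (11.1%), beside 5.81%. All motifs were read on both strands. A match is a description of letters and not a site of binding.

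C6, which binds C5b and starts the assembly of the pore, had the smallest p of all members. It had 3138, 2762, 3390, 2744 and 3435 in vagotomised ozone livers, against 3652, 4124 and 4542 as lowest, median and highest value in vagotomised air livers. Sham ozone livers had 2877, 2941 and 3179 as lowest, median and highest value, against 3447, 4930, 4276, 4154 and 4827 in sham air livers. Ozone livers lay below air livers without overlap in both surgeries, where 11.7% of all genes did not overlap in vagotomised and 15.4% in sham rats. C6 fell by 0.41 ± 0.09 in vagotomised rats (limma, adjusted p = 0.00283) and by 0.53 ± 0.09 in sham rats (adjusted p = 0.00019). In sham rats that is a change of -30.9% in RNA. The difference between the changes was 0.12, with a 95% interval from -0.16 to 0.39. Without the 4 libraries low in 5.8S the changes were -0.43 and -0.53, at adjusted p of 0.00731 and 0.000311.

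C5, the component split into the attractant C5a and the pore starter C5b, had 19830, 18760, 17978, 17040 and 20276 in vagotomised ozone livers, against 18602, 22241 and 23878 as lowest, median and highest value in vagotomised air livers. Among sham rats it had 16429, 19083 and 20476 in ozone livers, against 21148, 29164, 19768, 23146 and 30238 in air livers. The groups overlapped in both surgeries. C5 fell by 0.39 ± 0.11 in sham rats (limma, adjusted p = 0.00903), while the change in vagotomised rats was -0.22 ± 0.11 (adjusted p = 0.160). C9, the subunit that lines the pore, had 20785, 23942, 25474, 27206 and 30130 in vagotomised ozone livers, against 23555, 31016 and 32491 as lowest, median and highest value in vagotomised air livers. For sham rats the C9 values were 21287, 25344 and 28468 in ozone livers, against 32889, 30696, 29771, 33826 and 50012 in air livers. No sham ozone liver reached a sham air liver, and sham air library 5, at 50012, was far above the others of its group. C9 fell by 0.48 ± 0.13 in sham rats (limma, adjusted p = 0.00656), against -0.24 ± 0.13 in vagotomised rats (adjusted p = 0.213). The differences between the surgeries, 0.17 for C5 and 0.25 for C9, had 95% intervals from -0.15 to 0.49 and from -0.13 to 0.63.

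C8 is built of an alpha, a beta and a gamma chain, and each of the 3 transcripts is given. C8b, the beta chain that binds C5b, C6 and C7, had 7309, 7036, 7312, 7728 and 7747 in vagotomised ozone livers, against 7651, 8756 and 9240 as lowest, median and highest value in vagotomised air livers. It fell by 0.22 ± 0.07 in vagotomised rats (limma, adjusted p = 0.0371), a call lost without any 1 of 8 libraries (adjusted p up to 0.0943), and in sham rats the change was -0.19 ± 0.07 (adjusted p = 0.0620). C8a, its neighbour in the annotation with no protein-coding gene between, had changes of -0.15 ± 0.10 and -0.04 ± 0.10, with adjusted p of 0.301 and 0.794. C8g, the gamma chain, a lipocalin linked to the alpha chain, had 3376, 3224, 3994, 4267 and 3638 in vagotomised ozone livers, against 2799, 3121 and 3479 as lowest, median and highest value in vagotomised air livers. For sham rats the C8g values were 3624, 4262 and 5616 in ozone livers, against 4099, 2964, 3001, 3485 and 2866 in air livers. Ozone livers were mostly above air livers, with overlap in both surgeries. C8g rose by 0.40 ± 0.11 in sham rats (limma, adjusted p = 0.0107), 32.1% more RNA, and was the only complement member to rise. In vagotomised rats its change was 0.22 ± 0.11 (adjusted p = 0.189).

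**Figure D2:**
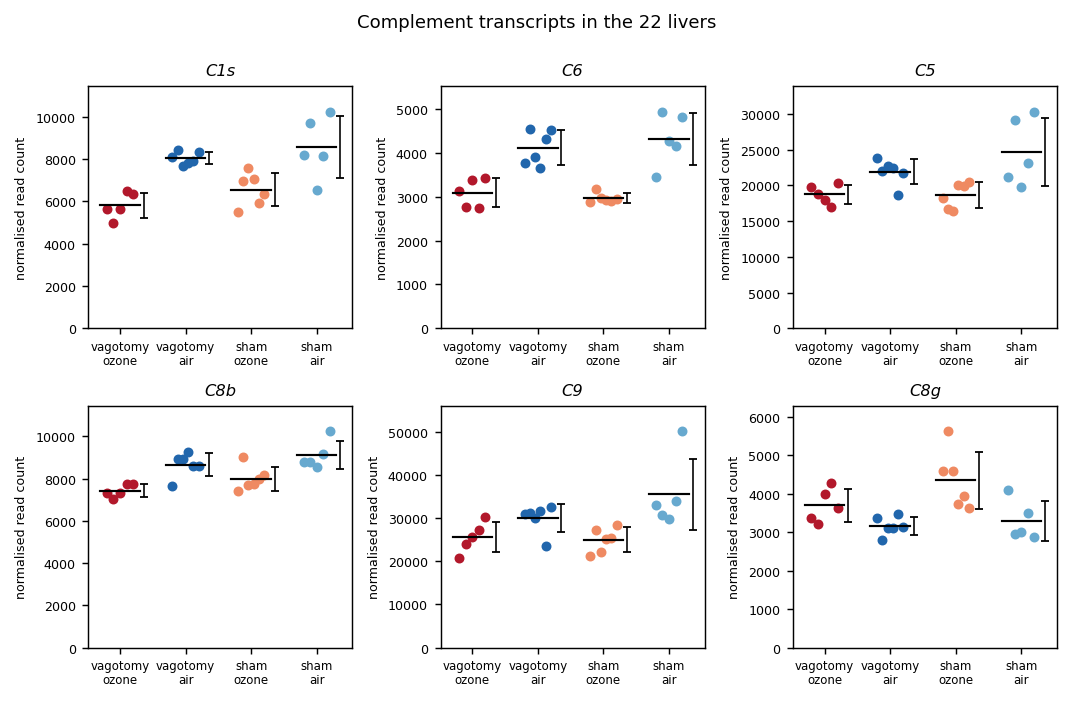
Normalised read count (y axis, from 0) of 6 complement genes in each of the 22 livers (points) of the 4 groups (x axis), with the group mean as a line and the SD as a bar beside it. C6 ozone livers, at 2744 to 3435, lie below all air livers of the same surgery, and C8g lies higher in most ozone livers.

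Of the 4 contact system genes, 2 fell in vagotomised rats (50%) and 0 passed in sham rats, beside 21.1% and 28.4% of all genes. Klkb1 encodes prekallikrein, the partner of factor XII, and F11 encodes factor XI, which activates factor IX. The genes are neighbours in the annotation, with no protein-coding gene between, and both are shown since they moved together in vagotomised rats. In RefSeq's GRCr8 table the 250 bases before the start of Klkb1 are chr16:53690976-53691225 and those of F11 chr16:53720252-53720501, both on the plus strand. The capitals in Klkb1 are the C/EBP letters on the other strand, and in F11 both matches of the glucocorticoid receptor letters.
Klkb1: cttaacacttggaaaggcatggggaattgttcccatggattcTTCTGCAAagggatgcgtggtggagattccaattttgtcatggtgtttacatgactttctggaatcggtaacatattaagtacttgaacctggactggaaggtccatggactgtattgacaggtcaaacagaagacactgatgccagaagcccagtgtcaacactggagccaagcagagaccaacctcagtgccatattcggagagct
F11: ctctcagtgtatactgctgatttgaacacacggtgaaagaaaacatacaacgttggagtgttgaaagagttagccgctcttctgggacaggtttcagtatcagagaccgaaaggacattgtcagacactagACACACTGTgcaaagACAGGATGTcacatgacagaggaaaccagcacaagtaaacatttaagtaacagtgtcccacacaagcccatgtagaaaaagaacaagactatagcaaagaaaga

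Klkb1 had 4946, 4859, 4863, 4261 and 4818 normalised counts in vagotomised ozone livers, against 5366, 6193 and 6566 as lowest, median and highest value in vagotomised air livers. Among sham rats Klkb1 had 5243, 6853 and 7259 in ozone livers, against 8125, 6569, 7081, 6354 and 6571 in air livers. The 5 vagotomised ozone livers lay below all 17 other livers. Klkb1 fell by 0.36 ± 0.09 in vagotomised rats (limma, adjusted p = 0.00696), while its change in sham rats was -0.10 ± 0.09 (adjusted p = 0.448). F11 had 3689, 3861, 4279, 3993 and 3384 in vagotomised ozone livers, against 4180, 4694 and 5385 as lowest, median and highest value in vagotomised air livers. Among sham rats F11 had 4582, 4889 and 6154 in ozone livers, against 4900, 4639, 4466, 4922 and 4887 in air livers. Vagotomised ozone livers were again the lowest, with 1 of them inside the range of vagotomised air livers. F11 fell by 0.29 ± 0.09 in vagotomised rats (limma, adjusted p = 0.0232), against 0.09 ± 0.09 in sham rats (adjusted p = 0.468). Without the 4 libraries low in 5.8S the fall of Klkb1 was -0.40 (adjusted p = 0.00726), and F11 no longer passed, at -0.26 (adjusted p = 0.0563). F11 was also lost without vagotomised ozone library 5 (adjusted p = 0.0743) or vagotomised air library 5 (adjusted p = 0.0566).

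The difference between the ozone changes of the surgeries was -0.26 for Klkb1, with a 95% interval from -0.53 to 0.01, and -0.38 for F11, with an interval from -0.64 to -0.12. Neither passed the test (adjusted p = 0.556 and 0.393). F12, factor XII, had changes of -0.16 ± 0.19 in vagotomised rats and 0.18 ± 0.19 in sham rats, with the widest spread of all members. Kng1, kininogen, the carrier of bradykinin, had -0.01 ± 0.17 and 0.09 ± 0.17. Its counts may be uncertain, since rats have near-identical kininogen genes among which reads can be split. Kng1l1 and Kng2 had no row in the data, and a split of reads was not tested.

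The clotting factors F2, F7, F9 and F10, whose proteins need vitamin K, did not pass in either surgery, nor did F5 and F13b. F2, prothrombin, had changes of -0.19 ± 0.13 in vagotomised and 0.02 ± 0.13 in sham rats. F7, factor VII, which starts clotting with tissue factor, had -0.01 ± 0.12 and 0.10 ± 0.12, and F10, factor X, its neighbour in the annotation with no protein-coding gene between, had -0.18 ± 0.10 and 0.11 ± 0.10. F9, factor IX, had -0.02 ± 0.16 and 0.18 ± 0.16. The lowest adjusted p among these 4 genes was 0.230, for F10 in vagotomised rats. F5, the cofactor of factor X, had -0.01 ± 0.15 in vagotomised rats and 0.26 ± 0.15 in sham rats (adjusted p = 0.196). F13b, the carrier subunit of the factor that cross-links fibrin, had -0.16 ± 0.09 and -0.15 ± 0.09, and fell in the average over surgeries, at -0.16 ± 0.06 (adjusted p = 0.0443), a call lost in 3 settings and without any 1 of 15 libraries (adjusted p up to 0.0821).

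Proc, protein C, the protease that shuts off factors V and VIII, had 3146, 2495, 2878, 3667 and 2595 in vagotomised ozone livers, against 2758, 2994 and 5165 as lowest, median and highest value in vagotomised air livers. Among sham rats Proc had 2967, 3533 and 5986 in ozone livers, against 3283, 2644, 2703, 2868 and 3037 in air livers. Groups overlapped in both surgeries, and the highest sham ozone value, 5986, was that of library 3, which was low in 5.8S. Proc rose by 0.45 ± 0.17 in sham rats (limma, adjusted p = 0.0470), 37.0% more RNA, and without the 4 low libraries by 0.34 (adjusted p = 0.0353). The call was lost without any 1 of 11 libraries, at an adjusted p of 0.112 without sham ozone library 3. In vagotomised rats the change was -0.17 ± 0.17 (adjusted p = 0.521). The difference between the surgeries, -0.63 with a 95% interval from -1.12 to -0.13, was the largest of the members in size and did not pass (adjusted p = 0.437). Pros1, protein S, the cofactor of protein C, had -0.14 ± 0.14 in vagotomised rats and 0.11 ± 0.14 in sham rats, and passed in sham rats only without the low 5.8S libraries, at 0.21 (adjusted p = 0.0301), as did F9, at 0.28 (adjusted p = 0.0332).

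The thrombin inhibitors did not pass. Serpinc1, antithrombin, averaged 36348 ± 1909 in vagotomised ozone livers and 35964 ± 750 in vagotomised air livers, and 39827 ± 2787 in sham ozone livers and 36152 ± 2248 in sham air livers (SD). It was the steadiest member, and its changes of 0.01 ± 0.08 and 0.14 ± 0.08 had 95% intervals from -0.14 to 0.17 and from -0.02 to 0.29. Serpind1, heparin cofactor II, had 0.11 ± 0.09 and 0.10 ± 0.09.

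Of the fibrinolysis genes, Serpinf2 encodes antiplasmin, the inhibitor of plasmin. It had 8898, 6493, 7240, 7718 and 7368 in vagotomised ozone livers, against 8588, 9214 and 12768 as lowest, median and highest value in vagotomised air livers. Among sham rats Serpinf2 had 8091, 8930 and 12688 in ozone livers, against 12758, 11658, 8968, 9611 and 9838 in air livers. In vagotomised rats 1 ozone liver, library 1, lay inside the range of air livers. Serpinf2 fell by 0.38 ± 0.13 in vagotomised rats (limma, adjusted p = 0.0370), a call lost without any 1 of 6 libraries (adjusted p up to 0.107), and in sham rats its change was -0.14 ± 0.13 (adjusted p = 0.452). Plg, plasminogen, had a change of -0.27 ± 0.10 in vagotomised rats (adjusted p = 0.0501) and of -0.12 ± 0.10 in sham rats (adjusted p = 0.386). It fell in the average over surgeries, at -0.19 ± 0.07 (adjusted p = 0.0275). Cpb2, the carboxypeptidase that slows fibrinolysis, had 0.03 ± 0.09 and -0.14 ± 0.09. Vtn, vitronectin, which binds the terminal complement complex, had -0.17 ± 0.13 and 0.03 ± 0.13.

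**Figure D3:**
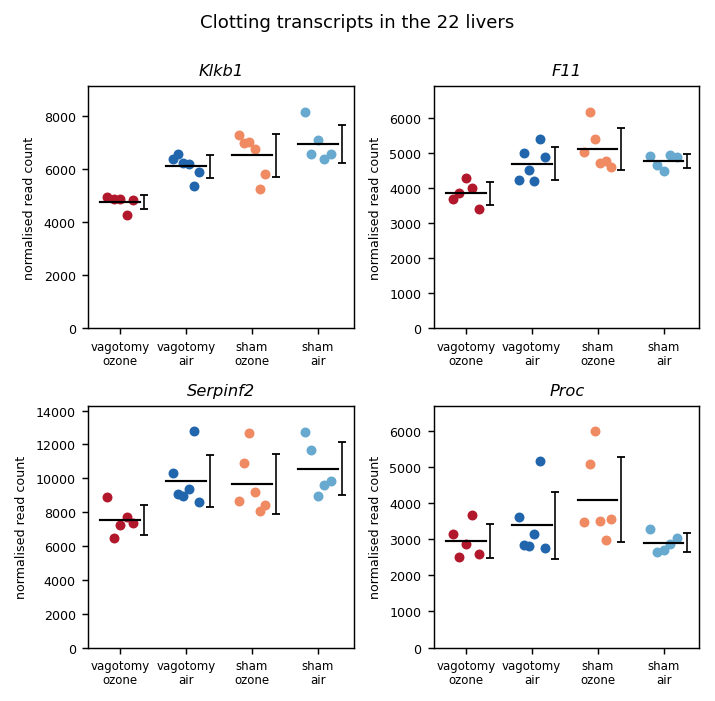
Normalised read count (y axis, from 0) of the 4 clotting genes called in an ozone comparison, in each of the 22 livers (points) of the 4 groups (x axis), with the group mean as a line and the SD as a bar beside it. The 5 vagotomised ozone livers have the lowest Klkb1 of all 22, at 4261 to 4946.

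Vagotomy itself was compared with sham surgery in each exposure. In air 0 of 35 members passed, and neither did any of the 12424 genes (0%), with 387 genes (3.11%) at an unadjusted p under 0.05 by limma, of which 0 were members. DESeq2 and edgeR, run on the recovered reads, also called 0 members there. The changes in air lay between -0.22 for C9 and 0.19 for Proc. In ozone 166 genes passed (1.34%, with 0.805% higher and 0.531% lower), among them 2 of 18 clotting genes and 0 of 17 complement genes. Klkb1 was lower in vagotomised ozone than in sham ozone livers by 0.44 ± 0.09 (limma, adjusted p = 0.0214), a change of -26.5%, and F11 by 0.41 ± 0.09 (adjusted p = 0.0294), a change of -24.5%. Neither gene overlapped between these groups, where 2.12% of all genes did not. These comparisons use the same 5 vagotomised ozone livers as the ozone comparison in vagotomised rats, so a low value there enters both. Both calls were also lost without single libraries (adjusted p up to 0.0629 for Klkb1 and 0.102 for F11), and when only the groups compared entered the fit, at an adjusted p of 0.115 for Klkb1 and 0.143 for F11. Over all genes that fit called 14.

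Clotting genes were mostly lower in vagotomised ozone than in sham ozone livers, though only Klkb1 and F11 passed. With these 2 included, the change was below 0 for 17 of 18, with a median of -0.25 beside -0.01 for all genes. Under equal column totals 15 of 18 were below 0, with a median of -0.15 beside 0.09. Complement genes had a median of -0.12, with 14 of 17 below 0, or -0.01 under equal column totals. The largest in size that did not pass were Proc at -0.44 ± 0.17 (adjusted p = 0.210), F9 at -0.36 ± 0.16 (0.285), Serpinf2 at -0.34 ± 0.13 (0.190), Kng1 at -0.29 ± 0.17 (0.430) and Plg at -0.27 ± 0.10 (0.168). The largest complement values were -0.25 ± 0.12 for Cfi and -0.24 ± 0.10 for Serping1. Of the difference between ozone changes, 29 of 35 members had a lower change in vagotomised than in sham rats, 13 of 17 complement and 16 of 18 clotting. Over all genes 50.5% of these differences were below 0. Under equal column totals 12 of 17 complement and 15 of 18 clotting genes were below 0, at medians of -0.04 and -0.12, beside 0.08 for all genes. None of the members passed, and none of all 12424 genes did by limma, with 1147 (9.23%) at an unadjusted p under 0.05, against 20 genes called by DESeq2.

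**Figure D4:**
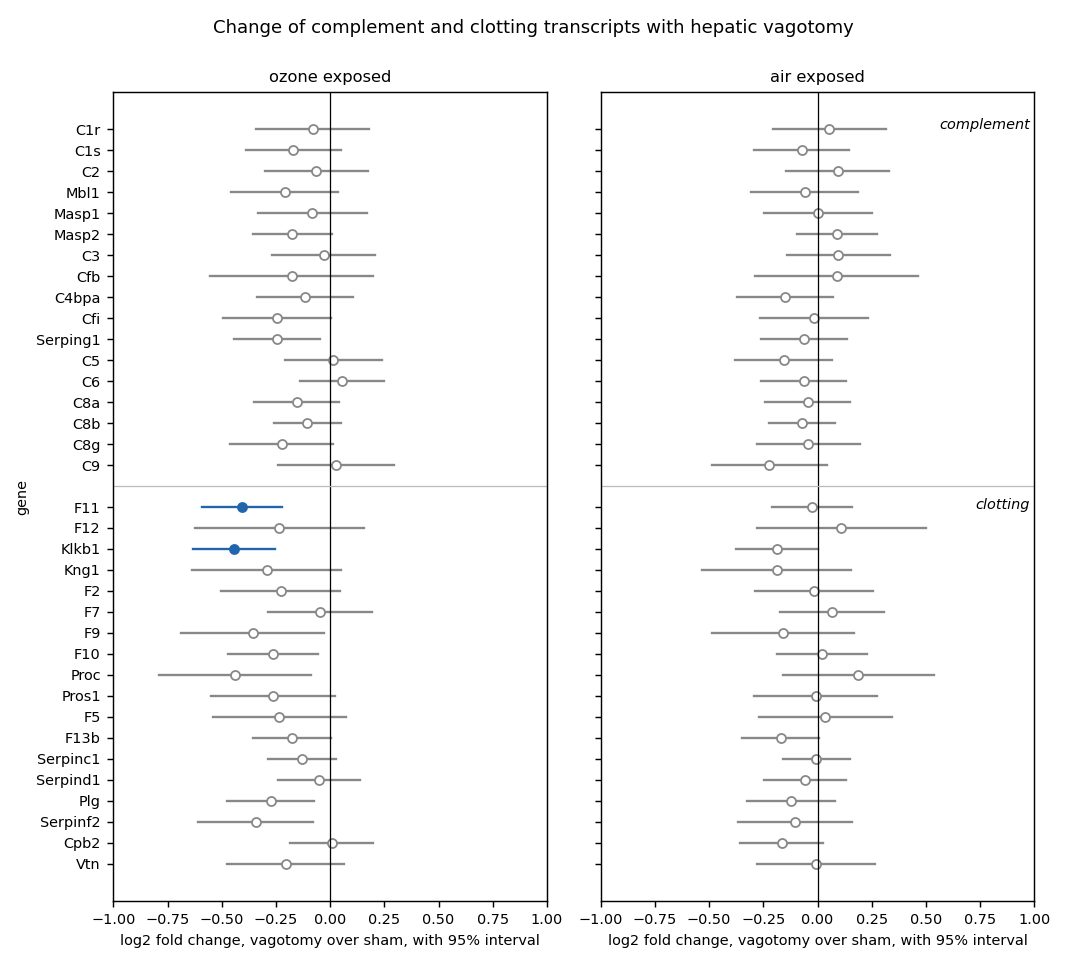
Log2 fold change of vagotomy over sham with its 95% interval (x axis) for the 35 tested genes (y axis, complement above the line, clotting under it), in ozone (left) and air (right). Filled points passed at an adjusted p under 0.05. Klkb1 and F11 are the only filled points, and 17 of 18 clotting points lie left of 0 in ozone.

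Summed over the members, complement RNA was 448013 to 500824 normalised counts in vagotomised ozone livers, against 527850 to 575555 in vagotomised air livers, without overlap. For sham rats the sum was 459297 to 535191 in ozone livers, against 456477 to 679909 in air livers. Clotting RNA was 274281 to 316111 in vagotomised ozone livers, against 306117 to 357801 in vagotomised air livers. For sham rats the sum was 319318 to 383592 in ozone livers, against 299946 to 381036 in air livers. These sums are not per length and C3 gives most of the counts in the complement sum. As a share of reads, complement was 2.65% to 3.25% in vagotomised ozone and 3.18% to 3.62% in vagotomised air livers, with overlap. In sham rats it was 2.57% to 3.08% in ozone and 2.86% to 4.04% in air livers. The clotting share averaged 1.80% in vagotomised ozone and 1.98% in vagotomised air livers. For sham rats it averaged 1.96% in ozone and 2.06% in air livers, though the mean clotting sum was higher in ozone, at 347496 against 339133. The sums were not tested.

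Other genes of both cascades were listed with these members. Of 22 other complement genes tested, 3 fell in vagotomised rats and 5 in sham rats, and 0 rose, shares of 13.6% and 22.7% beside 21.1% and 28.4% of all genes. C1rl, a C1r-like protease next to C1r in the annotation, averaged 1765 ± 81 in vagotomised ozone livers and 2511 ± 382 in vagotomised air livers, and 1875 ± 227 in sham ozone livers and 2510 ± 275 in sham air livers (SD). It fell by 0.49 ± 0.11 in vagotomised rats (limma, adjusted p = 0.00191) and by 0.42 ± 0.11 in sham rats (adjusted p = 0.00486). C4bpb, the beta chain of the C4b-binding protein, which carries protein S, fell by 0.57 ± 0.12 and 0.44 ± 0.12 (adjusted p = 0.00146 and 0.00778). Colec10, a collectin of the lectin pathway, fell in sham rats by 0.58 ± 0.20 (adjusted p = 0.0325), against -0.06 ± 0.20 in vagotomised rats, a call lost without sham ozone library 1, 2 or 3 or sham air library 3, 4 or 5 (adjusted p up to 0.108). Cr1l, a membrane inhibitor of complement, fell in the average over surgeries, at -0.23 ± 0.07 (adjusted p = 0.0119). In the average over surgeries transcripts of the inhibitors C4bpa, C4bpb and Cr1l thus fell, while Cfi and Serping1 did not pass. Of the pathway proteases among the members, C1r, C1s and C2 fell there, while Masp1, Masp2 and Cfb did not pass. The call of C4bpa was lost without any 1 of 16 libraries and that of C2 without any 1 of 10.

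Of 23 other clotting and fibrinolysis genes tested, 4 fell in vagotomised rats and 0 rose, and 2 fell and 2 rose in sham rats. These were shares of 17.4% in each, beside 21.1% of all genes in vagotomised and 28.4% in sham rats. The chains of fibrinogen, the precursor of fibrin, fell together in vagotomised rats, Fga by 0.47 ± 0.12, Fgb by 0.47 ± 0.10 and Fgg by 0.38 ± 0.12 (limma, adjusted p = 0.00884, 0.00172 and 0.0218). In sham rats Fga fell by 0.34 ± 0.12 (adjusted p = 0.0414), and Fgb and Fgg had changes of -0.21 ± 0.10 and -0.30 ± 0.12 (adjusted p = 0.121 and 0.0603). Without the low 5.8S libraries Fgg no longer passed in vagotomised rats (adjusted p = 0.0831), nor without vagotomised ozone library 2 or vagotomised air library 1. Fga in sham rats was lost without any 1 of 7 libraries, at an adjusted p of up to 0.138 without sham air library 5. Hrg, histidine-rich glycoprotein, which binds plasminogen and heparin, rose by 0.28 ± 0.09 in sham rats (adjusted p = 0.0191), a call lost without sham ozone library 1 or sham air library 3 and under equal column totals (adjusted p up to 0.104). It was lower in vagotomised ozone than in sham ozone livers by 0.35 ± 0.09 (limma, adjusted p = 0.0490). That call was lost without any 1 of 18 libraries and without the 4 libraries low in 5.8S (adjusted p up to 0.185 over all alternatives). Procr, the endothelial protein C receptor, fell by 0.83 ± 0.26 in sham rats (adjusted p = 0.0207), at means of 12.9 in sham ozone and 23.2 in sham air livers, a call lost without sham ozone library 4 or sham air library 5 (adjusted p up to 0.0667). Anxa2, an annexin that binds plasminogen on cells, fell by 0.58 ± 0.19 in vagotomised rats (adjusted p = 0.0300), a call lost without any 1 of 5 libraries (adjusted p up to 0.102).

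Of 9 tested genes for making and exporting the factors, 2 rose and 1 fell in each surgery. These were shares of 33.3%, beside 21.1% of all genes in vagotomised and 28.4% in sham rats. Tpst2, which adds sulfate to tyrosines, rose by 0.62 ± 0.14 in vagotomised rats and by 1.19 ± 0.14 in sham rats (limma, adjusted p = 0.00219 and 1.26e-06). It averaged 599 ± 116 in vagotomised ozone and 385 ± 42 in vagotomised air livers, and 816 ± 168 in sham ozone and 353 ± 34 in sham air livers (SD), without overlap in either surgery. Mcfd2, part of the receptor that carries factors V and VIII out of the endoplasmic reticulum, rose by 0.26 ± 0.09 and 0.46 ± 0.09 (adjusted p = 0.0339 and 0.00034). In vagotomised rats it did not pass without any 1 of 7 libraries, without the 4 libraries low in 5.8S or by edgeR (adjusted p up to 0.0952 over all alternatives). Asph, which hydroxylates aspartate in clotting factor domains, fell by 0.33 ± 0.10 and 0.29 ± 0.10 (adjusted p = 0.0176 and 0.0279), the call in sham rats being lost without any 1 of 5 libraries (adjusted p up to 0.0842).

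Of 23 hepatocyte regulators tested, 1 rose and 4 fell in vagotomised rats, 21.7%, beside 21.1% of all genes. In sham rats 4 rose and 5 fell, 39.1%, beside 28.4% of all genes. Hnf4a, a transcription factor of many plasma protein genes, rose by 0.69 ± 0.11 in sham rats (adjusted p = 6.56e-05), against 0.25 ± 0.11 in vagotomised rats (adjusted p = 0.123). It was lower in vagotomised ozone than in sham ozone livers by 0.55 ± 0.11 (adjusted p = 0.0199), as Klkb1 and F11 were, with the same livers in all of these values, and lost that call without any 1 of 4 libraries or with only the groups compared (adjusted p up to 0.145). Nr3c1, the glucocorticoid receptor, fell by 0.49 ± 0.15 and 0.70 ± 0.15 (adjusted p = 0.0227 and 0.00128), in vagotomised rats not without vagotomised ozone library 3 or vagotomised air library 2 (adjusted p up to 0.0593). Foxa1, a forkhead factor of the liver, fell by 0.94 ± 0.18 in vagotomised rats (adjusted p = 0.000532). It also fell in the average over surgeries, which includes these rats (limma, adjusted p = 6.52e-05). No link between the regulators and the members was tested.

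Spread between livers of 1 group differed among members. The SD within groups on the log2 scale was 0.08 for Serpinc1 and 0.09 for C8b at the low end and 0.30 for Proc, 0.32 for Cfb and 0.34 for F12 at the high end. The median was 0.17 for complement and 0.20 for clotting genes, against 0.28 for all tested genes and 0.21 for the 1946 genes with a mean of at least 1000.

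Some members stood apart in the 4 libraries low in 5.8S. Cfb had 14778, 18422, 20544 and 19570 in vagotomised ozone library 1, vagotomised air libraries 1 and 5 and sham ozone library 3, against 9137 to 14421 in the other 18. C2 had 3968, 4477, 4729 and 4296, against 2756 to 3905 in the others, and F12 had 13154, 14073, 16083 and 17085, against 7666 to 12713. All 4 libraries were above all others for these 3 genes. F9 had 12287, 12213, 13819 and 15260, against 15591 to 26687, Pros1 had 5107, 6231, 6838 and 6207, against 7338 to 9994, and Serpind1 had 10713, 9156, 10292 and 10229, against 11031 to 14115. For these the 4 libraries were below all others. In all, 6 of 35 members (17.1%) were apart in these libraries, 2 complement and 4 clotting, beside 7.48% of all tested genes. No sham air liver was among the 4. Without them the vagotomised calls were 5 complement and 3 clotting genes and the sham calls 8 and 3, the direction of each called member being the same. The part of these libraries in the results was not tested beyond leaving them out.

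**Figure D5:**
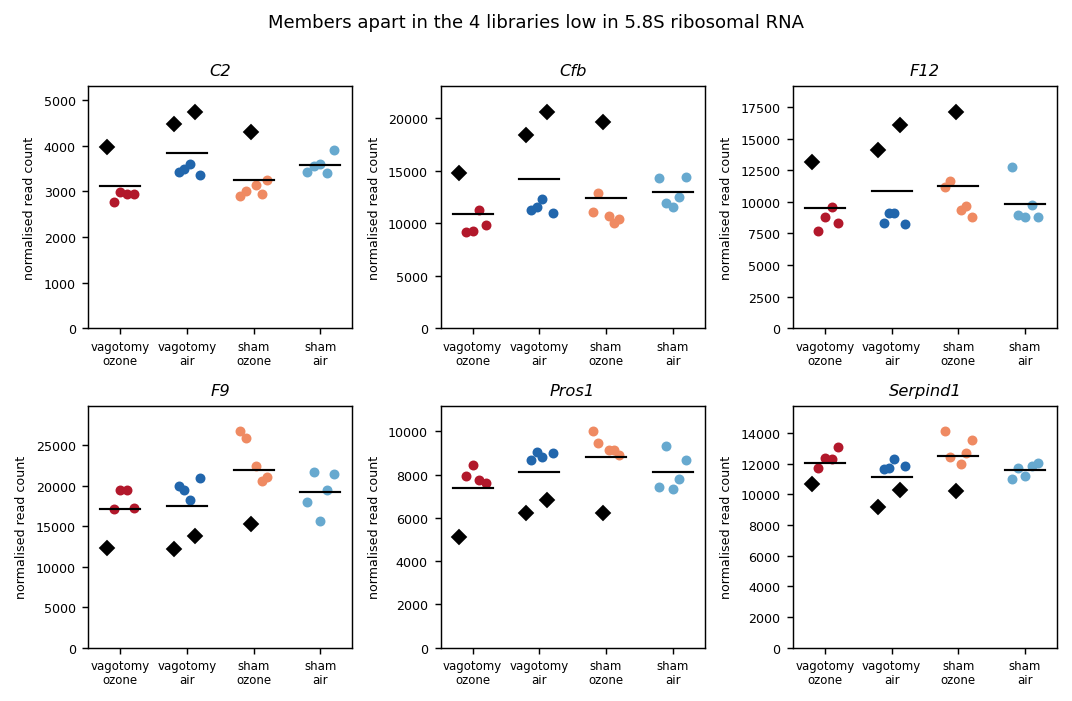
Normalised read count (y axis, from 0) of 6 genes in each of the 22 livers of the 4 groups (x axis). Black diamonds are the 4 libraries under 200 normalised counts of 5.8S ribosomal RNA, circles the other 18, and lines the group means. The diamonds lie above all circles for C2, Cfb and F12 and below all circles for F9, Pros1 and Serpind1.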

How the data were processed

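The 22 rat livers were measured by RNA sequencing in 4 groups. The deposited signal values are normalised counts, reads that the authors divided by a size factor, as the steps in each column show. STAR, Partek, DESeq and DESeq2 are named with the rat build rn6, without versions, per the submitters' processing notes. All values of a column were whole multiples of 1 step within 0.001 (100% of values), which gave back the reads used by the count tests. Whether the counts used strand is not given in the sources used here, so reads of overlapping genes may be shared. All 22 columns were used. Libraries of 1 group differed beyond sampling noise, with at least 9.94 chi-square per degree of freedom over 50 pairs. They are separate rats.

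Normalised counts were taken as log2(count + 1), with a minimum mean of 10. A model of 4 group means with an intensity trend was fitted by limma 3.58.1 (R 4.3.3) and gave 6 two-sided comparisons. Fold changes understate the changes of low genes. edgeR 4.0.16 (quasi-likelihood, TMM) and DESeq2 1.42.0 were run on the reads as alternatives, beside pseudocounts of 0.5 and 5, no minimum or a minimum mean of 50, equal column totals, equal upper quartiles, the replicate number as a block, the S number of the sample as a covariate, only the groups compared, each library left out in turn and, chosen after seeing the data, the 4 libraries low in 5.8S left out together. The procedure was tested on simulated data.

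Every member is named. Full values go to members called in a comparison, up to 8 per list by the smallest p, and of each other list up to 4 called genes per comparison are named. Some genes that this rule names and 1 of the motifs searched are not reported here. The members and lists were chosen with earlier results of these data known. Promoters were searched in RefSeq's GRCr8 table, another build than rn6, so no other coordinates are given. Plots come from matplotlib 3.10.9 (Python 3.11.15).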

Additional observations from a re-analysis of the deposited data

Results flagged for a closer look

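Over 148 sets of values, 1 gene in 1 group each, 17 had a library apart from the others of its group by Dixon's test at 95%, where chance gives 1 in 20, or 7.4.

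In sham ozone library 3, low in 5.8S, C1r was 15264 (others 9697 to 11593), C2 was 4296 (2906 to 3247), Cfb was 19570 (9979 to 12857) and F12 was 17085 (8810 to 11655), all highest in the group, and Pros1 was lowest at 6207 (8916 to 9994). In vagotomised ozone library 1, also low in 5.8S, C2 was highest at 3968 (2756 to 2973) and Pros1 lowest at 5107 (7604 to 8449). In the other low libraries, vagotomised air 1 and 5, C4bpa was highest at 38215 in library 1 (28908 to 31444), and in library 5 C9 was lowest at 23555 (30082 to 32491) and Proc highest at 5165 (2758 to 3617).

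In sham air library 5, C9 was highest at 50012 (29771 to 33826), C8a at 19745 (14045 to 15203) and Kng1 at 83318 (35336 to 46991). In sham air library 1, F12 was highest at 12713 (8774 to 9711) and F7 at 2196 (1512 to 1663). C6 was highest in sham ozone library 2, at 3179 (2877 to 2965), and Klkb1 lowest in vagotomised ozone library 4, at 4261 (4818 to 4946). In all, 10 of the 17 lie in the 4 libraries low in 5.8S.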

How the results depend on the processing

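No change of a named gene turned its sign where it was called. C1s and C6 in both surgeries, C5, C9 and C8g in sham rats and Klkb1 in vagotomised rats held under every alternative run, each left-out library included.

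Complement calls in sham rats were 5, against 8 under equal column totals and 8 without the libraries low in 5.8S, and in vagotomised rats 4, against 2 under the replicate block. Clotting calls in sham rats were 1, against 0 with no minimum, with the S number, with only the groups compared and under the replicate block, 2 (both falls) under equal column totals and under equal upper quartiles, and 3 (all rises) without the libraries low in 5.8S. In vagotomised rats they were 3, against 5 under equal upper quartiles, and between vagotomised and sham ozone livers 2, against 1 under equal column totals and 0 with only the groups compared. With 1 library left out the ranges were 5 to 6 and 2 to 5 for complement in sham and vagotomised rats, 7 to 11 averaged, and 0 to 1, 1 to 4, 2 to 4 and 0 to 2 for clotting in sham, in vagotomised, averaged and between vagotomised and sham ozone livers. The cause was not tested.

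C1r in vagotomised rats was lost without vagotomised ozone 2 (adjusted p = 0.0997) or 3 (0.0860) or vagotomised air 1 (0.0844) or 5 (0.0715), over a range of 0.0153 to 0.0997. C8b was lost without any 1 of 8 of the 11 vagotomised libraries (0.0514 to 0.0943) and with only the groups compared (0.0585). F11 was lost without vagotomised ozone 5 (0.0743) or vagotomised air 5 (0.0566), and Serpinf2 without vagotomised ozone 2, 3, 4 or 5 or vagotomised air 1 or 5 (0.0544 to 0.107). Between vagotomised and sham ozone livers F11 was lost without vagotomised ozone 2 or 5 or sham ozone 1 or 2 (0.0582 to 0.102), and Klkb1 without those or vagotomised ozone 4 (0.0513 to 0.0629) and under equal column totals (0.0755). Proc in sham rats was lost in 6 settings and without any 1 of 11 libraries, up to 0.112 without sham ozone 3 and 0.124 over all. Of the calls averaged over surgeries, C2 was lost without any 1 of 10 libraries (up to 0.0649), C4bpa without any 1 of 16 (0.108) and F13b without any 1 of 15 (0.0821), Plg without vagotomised ozone 1 (0.0578), and Serpinf2 without vagotomised ozone 2 or sham air 1 or 2 (0.0554).

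Replicate numbers count rats within a group. Samples with the same number varied together no more than others at the median (median r of 0.03 over 31 pairs, -0.49 to 0.61, against 0.04 over 150 other pairs). The labels give no pairing, and what else such samples share was not tested. With the number as a block C1r (adjusted p = 0.0530) and C8b (0.0623) in vagotomised rats and Proc (0.0583) in sham rats no longer passed, nor did C4bpa and F13b in the average over surgeries and Fga in sham and Mcfd2 in vagotomised rats. Hrg was also lost between vagotomised and sham ozone livers.

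Equal column totals moved the median of all genes in sham rats to -0.09, against 0.01, and the share of called genes that rose to 33.9%, against 51.3%. Equal upper quartiles gave 35.5% there and 42.3% in vagotomised rats, against 54.3%. Between vagotomised and sham ozone livers equal column totals gave 85.5%, against 60.2%. Genes called there were 166, against 14 with only the groups compared, 206 higher and 160 lower by DESeq2 and 272 without the libraries low in 5.8S. The smallest change called among the members was 0.22 in size in vagotomised rats (C8b) and 0.38 in sham rats (C1s), with SEs of 0.07 to 0.19, so smaller changes were mostly not detectable at this number of rats.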
